A study of Mus musculus with 45 samples.

Results

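The heat shock proteins and their cochaperones were measured as polyA RNA by sequencing; the tissue was medial prefrontal cortex, and the mice were C57BL/6J. The genes were chosen by name: those named as HSP70, HSP110, HSP90, HSP60, HSP10 or small heat shock proteins, all DNAJ genes, Bag1 to Bag6, the HSP70 exchange factor Hspbp1 and other genes of the same name stem, and the heat shock factors Hsf1 and Hsf2. This gave 82 of the 24421 genes counted. From each mouse a small part of the minced tissue was kept as total homogenate. The rest was dissociated, freed of myelin on a gradient and passed over magnetic beads against ACSA2, an astrocyte surface antigen. The bound cells carry the label astrocyte and are called isolated cells here. The 4 groups were isolated cells of ethanol mice (10 libraries), isolated cells of water mice (10), homogenate of ethanol mice (12) and homogenate of water mice (12). Ethanol mice chose freely between water and 15% ethanol by volume every other day for 72 days, had only water on the days between, and were killed 24 hours after their last drinking day. Water mice had only water for 72 days. The labels name no transgene, and the mice's age is not given in them. Of 24 mice, 20 gave a library of both fractions, and each library comes from 1 mouse.

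Heat shock proteins are molecular chaperones. HSP70 proteins bind unfolded stretches of client proteins in a cycle driven by ATP: DNAJ proteins (HSP40) deliver clients and stimulate ATP hydrolysis, while BAG proteins, HSPBP1 and the HSP110 proteins release ADP, and many clients then pass on to HSP90. When unfolded proteins accumulate, heat shock factor 1 (HSF1) forms trimers that bind heat shock elements in promoters, which are repeats of the unit NGAAN in alternating direction, and the inducible chaperone genes are transcribed within minutes. Other members are constitutive, and some serve a single compartment: HSPA5 the endoplasmic reticulum, HSPA9, HSPD1 and HSPE1 the mitochondrion, and DNAJC5 and DNAJC6 the synaptic vesicle cycle of neurons.

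Promoter sequences from RefSeq (GRCm38.p6) were available for 66 of the 82 members, as windows of 250 bases before to 50 bases after each annotated start. Of the heat-inducible members, 6 are shown, picked from those whose windows hold the letters of a heat shock element before the start; Hsph1 is among them although its level did not differ between the fractions past the threshold. Capitals mark the units of the element, GAA and its reverse complement TTC spaced by 2 bases. Each line runs 5′ to 3′ on the gene's strand, and all 60 bases lie before the start.
Hspa1a, chr17:34972227-34972286, minus strand: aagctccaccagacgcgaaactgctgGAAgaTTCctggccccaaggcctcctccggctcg
Hspa1b, chr17:34959309-34959368, minus strand: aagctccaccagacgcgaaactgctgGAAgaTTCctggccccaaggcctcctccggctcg
Hspb1, chr5:135887776-135887835, plus strand: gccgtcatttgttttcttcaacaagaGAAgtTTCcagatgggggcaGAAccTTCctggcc
Hspe1, chr1:55088038-55088097, plus strand: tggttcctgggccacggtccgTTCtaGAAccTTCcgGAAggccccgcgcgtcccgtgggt
Dnaja1, chr4:40722318-40722377, plus strand: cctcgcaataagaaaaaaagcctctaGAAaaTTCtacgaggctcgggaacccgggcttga
Hsph1, chr5:149636337-149636396, minus strand: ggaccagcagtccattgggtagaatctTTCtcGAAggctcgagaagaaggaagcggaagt
The stretches of Hspa1a and Hspa1b are letter for letter the same. The stretch of Hspe1, which encodes the mitochondrial HSP10, also lies in a window of Hspd1 (HSP60), which is transcribed the other way, and it holds 4 units in a row. An element of 2 units (GAA, any 2 bases and TTC, or TTC, any 2 bases and GAA, each its own reverse complement, so both strands are covered) was found in 19 of the members' 84 windows (22.6%) and in 15.1% of all 32851 RefSeq windows. In a list of 13 heat-inducible members, 11 genes had windows, and 10 of their 17 windows (58.8%) held it. The windows of Dnajb1 and Hspa4l held none, and that of Bag3 held 1 after the start. An element of 3 units (GAA, TTC and GAA, or TTC, GAA and TTC, each unit 2 bases from the next, on either strand), which contains overlapping 2-unit elements, was in 7.14% of the members' windows, those of Dnajb6, Hspd1, Hspe1 and Hsph1, and in 0.603% of all windows. A match describes letters only.

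Libraries of isolated cells held 504492 to 3248804 counts in genes, and 5 of the 10 from water mice held under 1000000. Homogenate libraries held 3673811 to 9109247 counts. Of the reads tallied, 37.4% to 90.3% were not aligned in isolated libraries, against 18.0% to 55.2% in homogenate libraries. The part of this difference in the results was not tested. Values are given as read counts normalised to library size (CPM), and levels of different genes are compared only as CPM per kilobase of exon. The neuron markers were lower in isolated cells by 13 of 13 (summed level 260 to 888 CPM in isolated cells of ethanol mice and 203 to 1430 CPM in those of water mice, against 11179 to 14692 CPM and 9706 to 14238 CPM in the matching homogenates). Of 15 astrocyte markers, 12 were higher in isolated cells in both sets of mice, yet their summed medians were close (11867 and 12669 CPM in isolated cells of ethanol and water mice, 10358 and 10038 CPM in homogenate). Gfap was lower in both sets (−2.25 ± 0.25 in ethanol mice and −2.13 ± 0.32 in water mice), and Ppp1r3c and Slc1a2 were lower in ethanol mice (−0.49 ± 0.14 and −0.42 ± 0.13). Microglia markers were higher by 12 of 12 (summed medians 7436 and 8485 CPM, against 689 and 661 CPM). Oligodendrocyte markers were higher by 11 of 11 (17957 and 16878 CPM, against 2507 and 2687 CPM), endothelial by 9 of 9 and mural by 9 of 9. Of 6 oligodendrocyte precursor markers, 1 was higher and 4 lower in ethanol mice, and 1 higher and 3 lower in water mice. Of 5 fibroblast markers 4 were tested, and 1 was higher in ethanol mice and none in water mice. Of 6 ependymal and choroid plexus markers 3 were tested: Foxj1 was higher in ethanol mice, and Kl and Ttr were lower in water mice. No marker of these lists was at 0 in every library of a group. The isolated libraries thus held astrocyte markers beside markers of microglia, oligodendrocytes and vessel cells. Between the fractions, more cells of a type and more RNA per cell cannot be told apart. All 15 of a list of early genes that respond to tissue dissociation, such as Fos and Jun, were also higher in isolated cells (summed medians 18556 and 17893 CPM, against 1356 and 1397 CPM). The part of these shifts in the results below was not tested.

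Hspa1a and Hspa1b, the stress-inducible cytosolic HSP70 genes, differed most between the fractions. The counts of members below stand against the share of all genes tested: 39.8% were higher and 41.9% lower in isolated cells of ethanol mice, and 37.2% and 40.3% in those of water mice. Hspa1a (chr17:34969190-34972156, mm10, minus strand) stood at 1441, 3272 and 4196 CPM in isolated cells of ethanol mice (lowest, median, highest) and at 1477, 2448 and 3642 CPM in isolated cells of water mice. In homogenate it stood at 31.2, 41.0 and 63.4 CPM in ethanol mice and at 28.9, 41.6 and 65.3 CPM in water mice. The groups did not overlap: every isolated library lay above every homogenate library. The difference was 72.8-fold in ethanol mice (log2 fold change 6.19 ± 0.19, SE, adjusted p = 8.21e-21, edgeR) and 58.5-fold in water mice (5.87 ± 0.18, adjusted p = 3.11e-20, edgeR), and within mice Hspa1a was higher in the isolated cells of 20 of 20. Hspa1b (chr17:34956436-34959238, minus strand) followed it closely, with medians of 3088 and 2370 CPM in isolated cells of ethanol and water mice, against 43.6 and 46.9 CPM in the matching homogenates (log2 fold changes 5.95 ± 0.22 and 5.60 ± 0.23). Both genes consist of a single exon and share 66.3% (Hspa1a) and 62.3% (Hspa1b) of their 50-base words with other genes, mainly each other, so the split of reads between them is uncertain. A predicted gene, Gm20481, overlaps Hspa1a on the opposite strand. Summed into 1 gene, they gave log2 fold changes of 6.07 ± 0.21 in ethanol mice and 5.73 ± 0.20 in water mice.

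Together Hspa1a and Hspa1b took a median of 0.668% of all gene counts in isolated cells of ethanol mice and 0.507% in isolated cells of water mice, against 0.00808% and 0.00855% in the matching homogenates. All 82 members took 1.58% and 1.36%, against 0.666% and 0.698%. These 2 genes thus made up 41.8% of the members' counts in isolated cells of ethanol mice and 37.6% in those of water mice, against 1.28% in both homogenates. Per kilobase of exon, they were the first and second of the tested members in isolated cells (medians of 1103 and 1102 CPM per kb in ethanol mice, 825 and 846 in water mice). In homogenate they ranked 33 and 28 in ethanol mice and 34 and 27 in water mice, and the constitutive Hsp90ab1 came first, at 329 and 328 CPM per kb in ethanol and water mice. In isolated cells the ranges of Hspa1a and Hspa1b over libraries overlapped almost fully, so their order is not resolved.

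**Figure D1:**
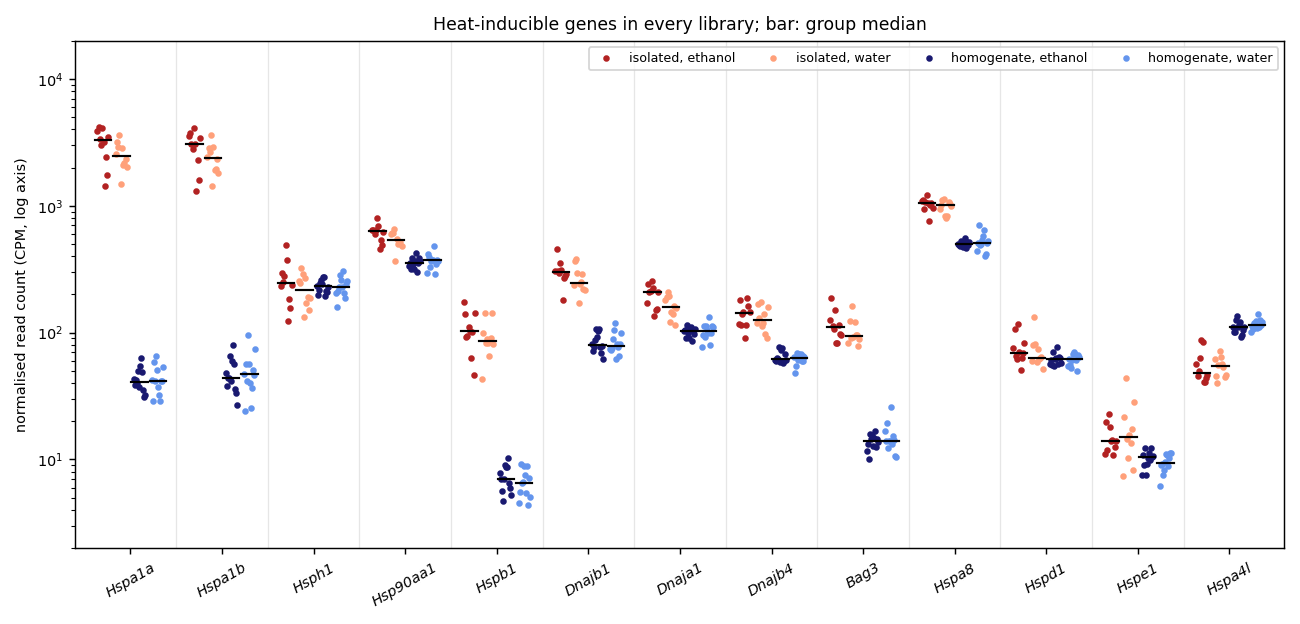
Normalised read counts (CPM, log axis) of the 13 heat-inducible genes in every library, by fraction and drinking group, with the group median as a bar. For Hspa1a, Hspa1b, Hspb1, Bag3, Dnajb1, Dnajb4 and Hspa8 every isolated library lies above every homogenate library, while the Hsph1 groups overlap and Hspa4l lies lower in isolated cells.

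Other HSP70 members covered a wide range. Hspa1l, a neighbour of Hspa1a transcribed the other way and known for its expression in testis, had medians of 61.2 and 50.9 CPM in isolated cells of ethanol and water mice and 1.23 and 1.33 CPM in homogenate. It passed the filter on low counts only through the isolated cells, so a difference was built in. It shares 71.4% of its 50-base words with other genes, among them Hspa1a and Hspa1b, and its own level is therefore uncertain. Hspa5 (BiP), the HSP70 of the endoplasmic reticulum, had medians of 1043 and 1018 CPM in isolated cells of ethanol and water mice and 280 and 298 CPM in homogenate (log2 fold changes 1.91 ± 0.09 and 1.86 ± 0.10). The constitutive Hspa8 (HSC70), which also uncoats clathrin vesicles, was 2.07-fold higher in isolated cells of ethanol mice and 1.88-fold higher in those of water mice. Hspa8 shares 39.4% of its 50-base words with other genes. Hspa12b, known from endothelial cells, was 2.12-fold higher in both. The mitochondrial Hspa9 was called in ethanol mice (0.27 ± 0.06) and not in water mice (0.17 ± 0.08, adjusted p = 0.0622, edgeR). Hspa12a went the other way: its lowest, median and highest values were 27.5, 37.3 and 55.2 CPM in isolated cells of ethanol mice and 23.5, 31.8 and 52.4 CPM in those of water mice. In homogenate they were 229, 256 and 335 CPM in ethanol mice and 93.9, 280 and 392 CPM in water mice. It fell with no overlap of the groups, by 2.78 on the log2 scale in ethanol mice and by 3.11 in water mice.

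The HSP110 proteins, exchange factors for HSP70, did not follow HSP70. Hsph1, itself heat-inducible, had 124, 244 and 493 CPM (lowest, median, highest) in isolated cells of ethanol mice and 133, 217 and 325 CPM in those of water mice. In homogenate it had 194, 233 and 276 CPM in ethanol mice and 160, 229 and 306 CPM in water mice. The medians were close and the isolated libraries spread more widely on both sides of the homogenate ones. The difference did not pass the test in ethanol mice (0.20, 95% interval −0.13 to 0.52) or in water mice (−0.06, −0.35 to 0.23), and 11 of 20 mice had more in the isolated cells. Hspa4 fell (log2 fold changes −0.64 ± 0.06 and −0.67 ± 0.07 in ethanol and water mice), and so did Hspa4l (−0.97 ± 0.12 and −1.06 ± 0.09), which was lower in the isolated cells of 20 of 20 mice.

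All 3 HSP90 genes were higher in isolated cells. Hsp90aa1, the inducible cytosolic HSP90, had medians of 636 and 534 CPM in isolated cells of ethanol and water mice and 354 and 371 CPM in homogenate (0.82 ± 0.08 and 0.57 ± 0.10). Its counts may be split with processed copies, since it shares 47.5% of its 50-base words with other genes. Hsp90ab1, the constitutive partner, differed least (0.40 ± 0.08 and 0.34 ± 0.09). Hsp90b1 (GRP94), which works in the endoplasmic reticulum, stood at 0.97 ± 0.06 and 1.03 ± 0.08. Of the mitochondrial chaperonin genes, Hspe1 was higher in both sets (0.59 ± 0.13 and 0.84 ± 0.21), and Hspd1 was called in ethanol mice (0.34 ± 0.11) and missed the threshold in water mice (0.24 ± 0.11, adjusted p = 0.0545, edgeR). Hspd1 and Hspe1 overlap on opposite strands, so some of their reads may not be separable. They share 42.1% (Hspd1) and 22.8% (Hspe1) of their 50-base words with other genes.

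Among the small heat shock proteins, which hold unfolded proteins without ATP, Hspb1 (HSP25) had 46.7, 102 and 173 CPM (lowest, median, highest) in isolated cells of ethanol mice and 43.3, 86.1 and 143 CPM in those of water mice. In homogenate it had 4.74, 6.98 and 10.2 CPM in ethanol mice and 4.41, 6.57 and 9.18 CPM in water mice. No homogenate library reached the lowest isolated one, and the difference was 15.1-fold and 13.7-fold in ethanol and water mice. Hspb1 shares 50.1% of its 50-base words with pseudogenes. Hspb8, the partner of Bag3 in selective autophagy, was higher by less (0.35 ± 0.15 and 0.60 ± 0.16; DESeq2 did not call it in ethanol mice), and Hspb6 did not pass the test in either set (in water mice it passed under upper-quartile scaling).

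The DNAJ genes split by member. In class B, 6 of 9 tested genes were higher and 2 lower in each set of mice. Dnajb1, the main inducible partner of HSP70, had 181, 299 and 459 CPM (lowest, median, highest) in isolated cells of ethanol mice and 171, 246 and 377 CPM in those of water mice. In homogenate it had 61.8, 80.1 and 107 CPM in ethanol mice and 62.3, 79.1 and 119 CPM in water mice. The groups did not overlap, and the log2 fold changes were 1.88 ± 0.12 and 1.68 ± 0.13. Dnajb2 (1.46 ± 0.07 and 1.38 ± 0.12), Dnajb4 (1.14 ± 0.10 and 1.10 ± 0.10) and Dnajb9 (1.23 ± 0.08 and 1.31 ± 0.08), a cochaperone of BiP in the endoplasmic reticulum, were also higher by more than 2-fold in both. Dnajb5 was lower (−1.82 ± 0.09 and −1.85 ± 0.12). In class A, only Dnaja1 was higher (0.98 ± 0.09 and 0.66 ± 0.11), while Dnaja2, Dnaja3 and Dnaja4 were lower.

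In class C, whose members serve specialised tasks, 8 of 24 tested genes were higher and 11 lower in ethanol mice, and 6 higher and 13 lower in water mice. Dnajc15, among the lower ones, passed the filter on low counts in ethanol mice only through the homogenate, so its call there was built in. Both synaptic vesicle members fell. Dnajc6 (auxilin), which brings HSC70 to clathrin coats in nerve terminals, had 60.9, 80.5 and 94.7 CPM (lowest, median, highest) in isolated cells of ethanol mice and 61, 72.7 and 101 CPM in those of water mice. In homogenate it had 318, 357 and 407 CPM in ethanol mice and 249, 335 and 432 CPM in water mice. The groups lay far apart (−2.13 ± 0.07 and −2.11 ± 0.10). Dnajc5 (cysteine string protein), the vesicle chaperone, fell by 1.34 in ethanol mice and by 1.29 in water mice on the log2 scale. Dnajc27 fell by 2.33 and 2.31, and Dnajc30 by 1.47 and 1.30. The neuron markers fell by more, with a median log2 fold change of −4.70 in ethanol mice and −4.33 in water mice. Dnajc3 (0.90 ± 0.07 and 0.82 ± 0.09), a BiP cochaperone, and Dnajc24 (1.30 ± 0.12 and 1.12 ± 0.16), which takes part in diphthamide synthesis, were higher.

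Of the 7 genes for BAG proteins and HSPBP1, which release ADP from HSP70, 5 were lower in isolated cells in both sets of mice. One of them, Bag2, passed the filter on low counts only through the homogenate, so its lower call was built in. Bag3, the inducible member that steers clients to autophagy, had 83.0, 110 and 188 CPM (lowest, median, highest) in isolated cells of ethanol mice and 79, 94.3 and 162 CPM in those of water mice. In homogenate it had 10.1, 14.1 and 16.8 CPM in ethanol mice and 10.5, 14.0 and 25.7 CPM in water mice. The groups did not overlap, and the difference was 8.57-fold in ethanol mice and 7.04-fold in water mice (log2 fold changes 3.10 ± 0.12 and 2.82 ± 0.14). Bag1, Bag2, Bag4, Bag5 and Hspbp1 were those that fell, Bag4 by the most (−2.02 ± 0.09 and −1.84 ± 0.13). Bag6, which guards newly made membrane proteins, stood at 0.14 ± 0.05 and 0.16 ± 0.08 and was near the threshold: it was called in ethanol mice but not in the fit without a filter on low counts, and in water mice under upper-quartile scaling.

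The heat shock factors themselves differed little in mRNA. Hsf1 had medians of 50.1 and 52.4 CPM in isolated cells of ethanol and water mice and 45.5 and 45.2 CPM in homogenate. It was higher in ethanol mice (0.22 ± 0.10, adjusted p = 0.0392, edgeR), a call that DESeq2 did not make, and not past the threshold in water mice (0.16 ± 0.08, adjusted p = 0.0865, edgeR). Hsf2, a related factor that can pair with HSF1, was lower in ethanol mice (−0.20 ± 0.09, adjusted p = 0.0474, edgeR) and stood at 0.05 ± 0.14 in water mice. The call of Hsf2 was lost when the mouse was kept as a block.

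Over the whole family the split between higher and lower was near that of all genes. Of 69 members tested in ethanol mice, 33 were higher and 26 lower, which is 47.8% and 37.7%, beside 39.8% and 41.9% of all genes tested. In water mice 28 were higher and 26 lower (40.6% and 37.7%), beside 37.2% and 40.3% of all genes. Under upper-quartile scaling, which moved the median of all genes by 0.10 in water mice, the split there was 35 higher to 21 lower. For all 13434 genes it was 5464 higher to 4931 lower. Hspa9, Hspd1, Hsf1, Bag6 and Hspb6 were called higher there too. The members' median log2 fold change was 0.14 in ethanol mice and 0.16 in water mice, beside −0.04 and −0.05 for all genes. Called in both sets were 27 higher and 24 lower members, and none had opposite calls. Of the 13 heat-inducible genes, 11 were higher, 1 lower and 1 not past the threshold in ethanol mice (median 1.05), and 10, 1 and 2 in water mice (median 0.91). These counts include calls that the filter on low counts built in. Hspa1l passed it only through the isolated cells in both sets. Bag2 (both sets), Dnajc15, Hspb6 and Hspbap1 (ethanol mice) and Dnajc19 (water mice) passed only through the homogenate. The higher calls of Hspa1l, the lower calls of Bag2 and those of Dnajc15 and Hspbap1 in ethanol mice were thus built in.

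Partner genes outside the family behaved in different ways. Of 16 endoplasmic reticulum chaperones and unfolded protein response genes, 15 were higher and 1 lower in both sets (medians 0.81 and 0.81 in ethanol and water mice). Of the 10 members placed in the endoplasmic reticulum, 7 were higher and 2 lower in each set. Hspa5, Hsp90b1, Dnajb9 and Dnajc3 were among the higher ones, and Dnajc10 and Dnajb14 were the lower ones. Of 20 HSP90 cochaperones and partners, 7 were higher and 6 lower in ethanol mice, and 4 and 5 in water mice (medians 0.08 and 0.11). St13, which joins HSP70 to HSP90, stood at 0.65 ± 0.06 and 0.70 ± 0.09. Of 14 chaperonin and prefoldin genes, which fold actin and tubulin, 5 were higher and 5 lower in ethanol mice, and 6 and 5 in water mice.

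**Figure D2:**
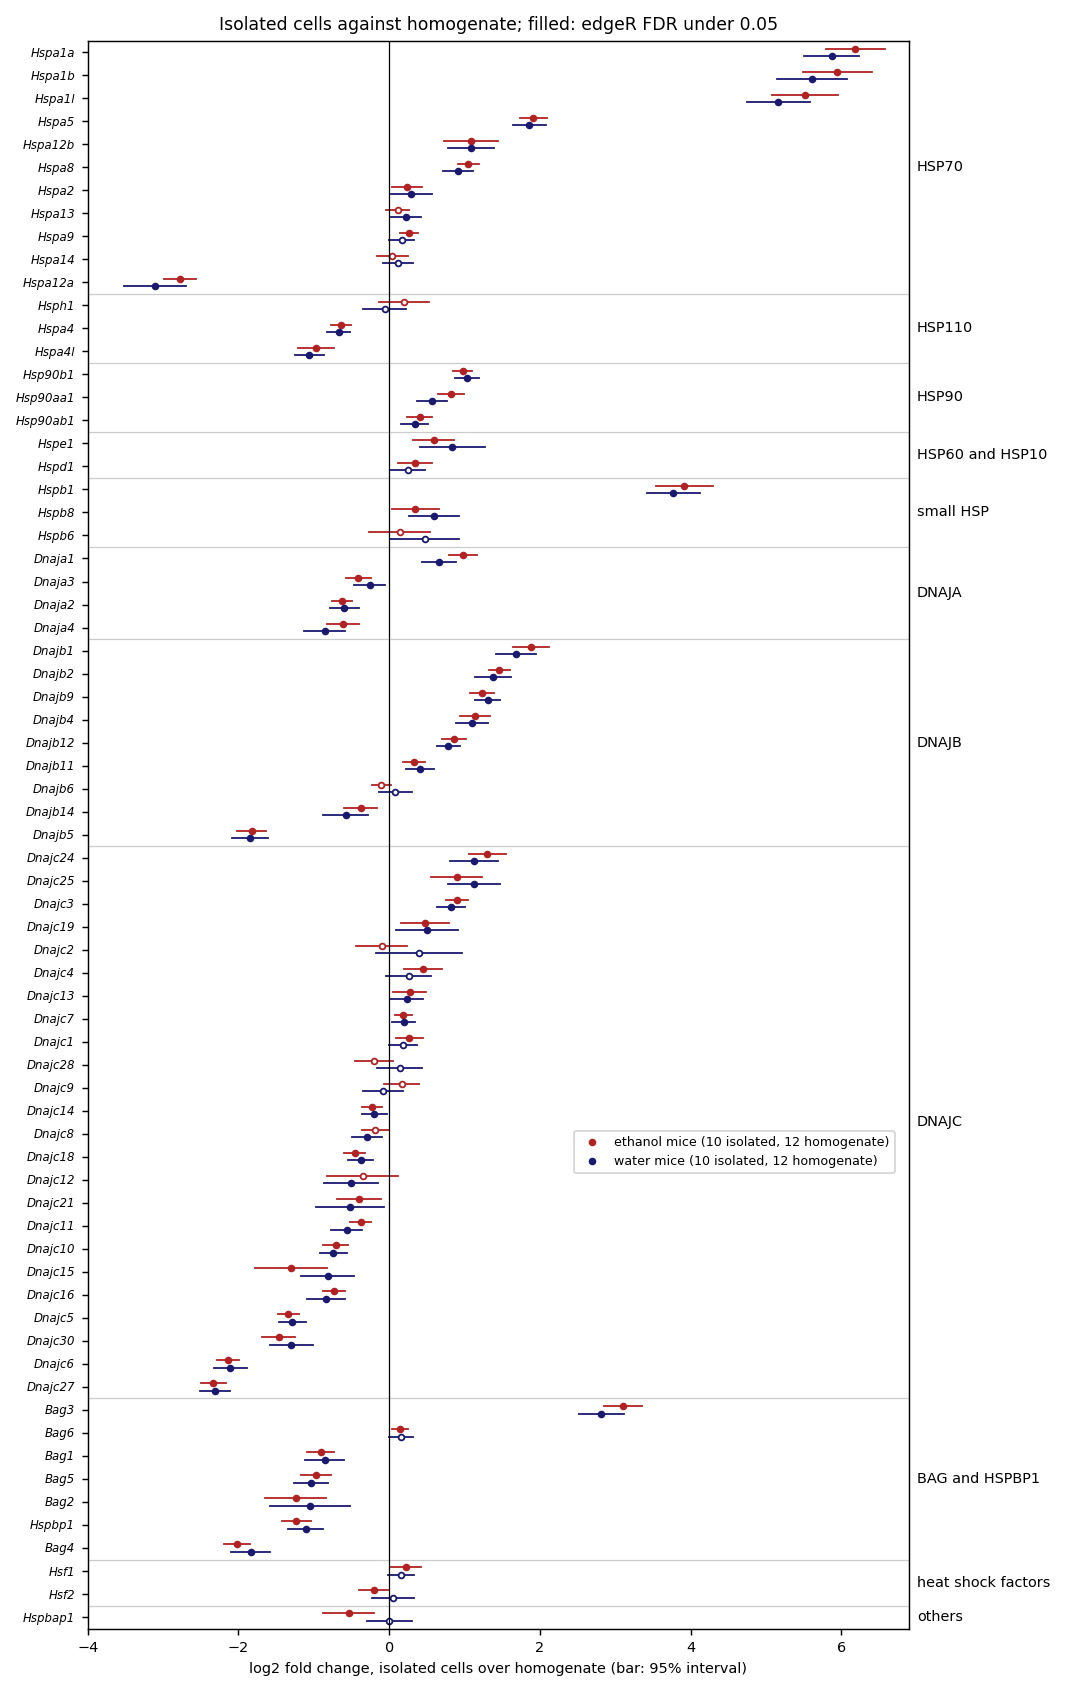
Log2 fold change of isolated cells over homogenate for the 69 members tested in each set of mice, grouped by role, with 95% intervals; filled points passed the threshold. Hspa1a, Hspa1b, Hspa1l, Hspb1 and Bag3 lie farthest to the right, Hspa12a, Dnajc27 and Dnajc6 farthest to the left.

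Within the isolated cells, libraries differed in how much of the inducible set they held, and several genes moved together. Each gene's log2 CPM was set against that of Hspa1a after subtracting the group mean. Over the 20 isolated libraries, Pearson's r with Hspa1a was 0.905 for Hsp90aa1 (Spearman's rho 0.850) and 0.832 for Hsph1 (rho 0.797). It was 0.786 for Dnajb1 (rho 0.768), 0.782 for Dnaja1 (rho 0.762), 0.680 for Hspd1 (rho 0.829), 0.649 for Bag3 (rho 0.618) and 0.585 for Hspa8 (rho 0.534). In permutation tests, p for r was 1e-05 for Hsp90aa1 and Hsph1 (the smallest that 100000 permutations can give), 4e-05 for Dnajb1, 3e-05 for Dnaja1, 0.00143 for Hspd1, 0.0023 for Bag3 and 0.00737 for Hspa8, and for rho it was at most 0.0177. All 7 passed with adjustment over the 28 relations computed, the adjusted permutation p being at most 0.0206 for r and 0.0414 for rho. Without the 2 libraries farthest from the median of Hspa1a, r ranged from 0.499 (Hspa8) to 0.872 (Hsp90aa1). The deviations of Hspa1a followed the mouse numbers in part. Isolated libraries of mice 75 (−1.02), 76 (−0.26), 77 (−0.73), 79 (−0.23), 80 (−0.18), 81 (−0.06) and 82 (−0.28) lay below their group mean. Mouse 78 lay above it (0.26), and of the lower numbers only mouse 73 (−0.73) lay below. The permutations treated libraries as exchangeable, so p does not allow for such a run. The part of this pattern in the relations was not tested.

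Hsph1 thus tracked Hspa1a among isolated libraries although its level did not differ from homogenate past the threshold. Within each drinking group r was 0.893 in ethanol mice and 0.944 in water mice for Hsp90aa1, and 0.821 and 0.852 for Hsph1. For Dnajb1, Dnaja1, Bag3, Hspa8 and Hspd1 it lay between 0.653 and 0.841 in ethanol mice and between 0.498 and 0.754 in water mice. Hspa1b reached 0.992 (rho 0.985, permutation p = 1e-05 for each), and these genes share reads. Hspb1 reached 0.558 (rho 0.570, permutation p = 0.0109 and 0.0106, adjusted 0.0278 and 0.0298), but without the 2 farthest libraries r was 0.302, so its relation rests on them, and r was 0.853 in ethanol mice and 0.113 in water mice. Dnajb4 (0.205, rho 0.229), Hspe1 (0.229, rho 0.239) and Hspa4l (0.221, rho 0.209) did not pass (permutation p from 0.309 to 0.387). Total gene counts (r 0.0834, permutation p = 0.726) and the mean of the early genes (r 0.404, permutation p = 0.0773) did not pass either. The 9 cell type marker lists, computed after these relations were seen, had r from −0.289 to 0.426 in isolated libraries, and none passed with adjustment over the 18 relations of that family (lowest adjusted permutation p 0.815 for r and 0.373 for rho).

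Over the 24 homogenate libraries the relation held for fewer genes. Hspa1b (r 0.937, rho 0.943, permutation p = 1e-05 for each) and Dnajb1 (r 0.635, rho 0.579, permutation p = 0.00092 and 0.00379, adjusted 0.00368 and 0.0133) passed. Hsph1 (0.475, rho 0.492, permutation p = 0.0188 and 0.0154, adjusted 0.0439 and 0.0393) passed too, but r was 0.322 without the 2 farthest libraries, so it rests on them. For Hsp90aa1 r was 0.0365 and for Bag3 −0.0132. The difference between the fractions in these relations was not tested.

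**Figure D3:**
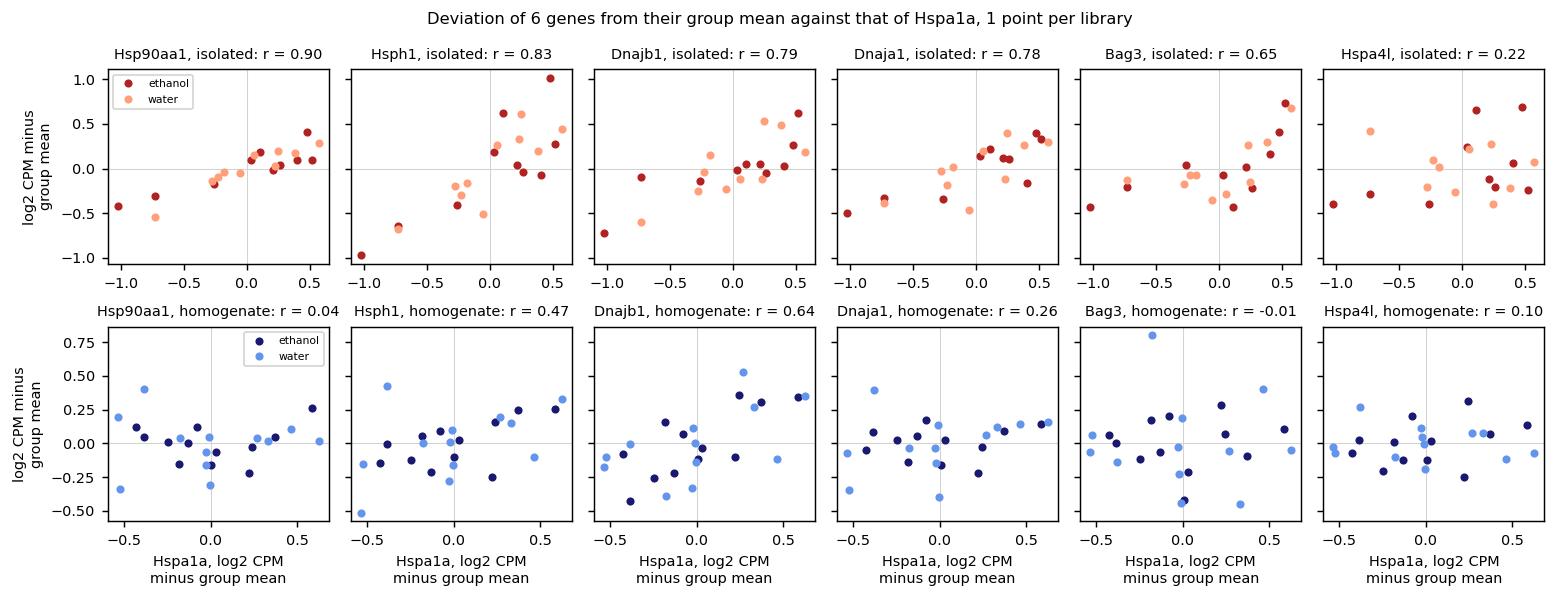
Deviation of 6 genes from their group mean (log2 CPM) against that of Hspa1a, 1 point per library, isolated cells above and homogenate below, with Pearson's r in each title. Hsp90aa1, Hsph1, Dnajb1, Dnaja1 and Bag3 rise with Hspa1a in isolated libraries, while Hspa4l does not, and in homogenate the points of Hsp90aa1 and Bag3 form no slope.

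No member differed with ethanol drinking past the threshold. In isolated cells, 0 of 63 tested members passed (0% of all 11122 genes did), 1 had an unadjusted p under 0.05 and the lowest adjusted p was 0.830 (edgeR). Among all genes 600 had an unadjusted p under 0.05. In homogenate, 0 of 70 members passed (0% of 13576 genes), none had an unadjusted p under 0.05 among the members, against 467 of all genes, and the lowest adjusted p was 0.979 (edgeR). DESeq2 called 0 members as well, beside 18 genes higher and 2 lower in isolated cells and none in homogenate. Every member's 95% interval lay within a 2-fold change in both fractions, and 54 of 63 in isolated cells and 69 of 70 in homogenate lay within 1.5-fold.

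Most of the highest point estimates in isolated cells were those of inducible genes, none past the threshold. Hspa1a stood at 3084 ± 941 CPM in isolated cells of ethanol mice and 2523 ± 637 CPM in those of water mice (SD, n = 10 each), with ranges that overlapped. The log2 fold change had a 95% interval of −0.06 to 0.66 (adjusted p = 0.978, edgeR). Dnaja1 had 136, 208 and 254 CPM (lowest, median, highest) in isolated cells of ethanol mice and 115, 159 and 210 CPM in those of water mice. It gave the lowest p among the members (log2 fold change 0.29 ± 0.12, unadjusted p = 0.0254, adjusted p = 0.830, edgeR). Hspa1b (0.28 ± 0.18), Hspa12a (0.28 ± 0.15), Dnajb1 (0.21 ± 0.14) and Hsp90aa1 (0.19 ± 0.11) lay above 0, and Dnajc25 (−0.33 ± 0.20, the estimate farthest from 0 of either sign), Dnajc28 (−0.27 ± 0.18), Hsf2 (−0.27 ± 0.16), Hspb8 (−0.23 ± 0.15), Hspa14 (−0.17 ± 0.12) and Dnaja3 (−0.15 ± 0.13) below it. Of the 13 heat-inducible genes, Hspe1 alone lay below 0 (−0.14 ± 0.24), and their median was 0.19. As several of these genes moved together among isolated libraries, their shared sign is not independent evidence. Cell type markers were also displaced in the same comparison, none past the threshold: 0 of 15 astrocyte markers (median −0.29), 0 of 11 neuron markers (−0.41) and 0 of 12 microglia markers (−0.15) lay above 0, against 8 of 9 mural markers (0.49), whose summed median was 2101 CPM in ethanol mice and 1363 CPM in water mice. Of 15 early genes 13 lay above 0 (0.10). A fit with neuron, oligodendrocyte, microglia and endothelial marker levels as covariates called no member, beside 61 genes higher and 171 lower of 11122. The part of the astrocyte and mural shifts was not tested. In homogenate Hspa1a stood at 43.0 ± 9.62 CPM in ethanol mice and 43.4 ± 11.4 CPM in water mice (SD, n = 12 each), and its log2 fold change was −0.01 ± 0.13. The estimates nearest the threshold there were Hspa9 (−0.09 ± 0.05), Hspa13 (0.09 ± 0.06), Dnajb6 (0.10 ± 0.07) and Dnajb5 (−0.14 ± 0.10).

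The difference of the ethanol effects between isolated cells and homogenate was tested for 71 members, and 0 passed (0% of 14087 genes). Hspbap1 (−0.55 ± 0.21), Dnajc17 (1.12 ± 0.48, at a mean of 8.07 counts per library) and Dnaja1 (0.31 ± 0.14) had an unadjusted p under 0.05, and the lowest adjusted p was 0.803 (edgeR). Among all genes 834 had such a p. Hspbap1 passed the filter on low counts only through groups other than isolated cells of ethanol mice, where its median was 4.09 CPM. For Hspa1a the difference was 0.30 ± 0.23, with a 95% interval of −0.16 to 0.76.

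**Figure D4:**
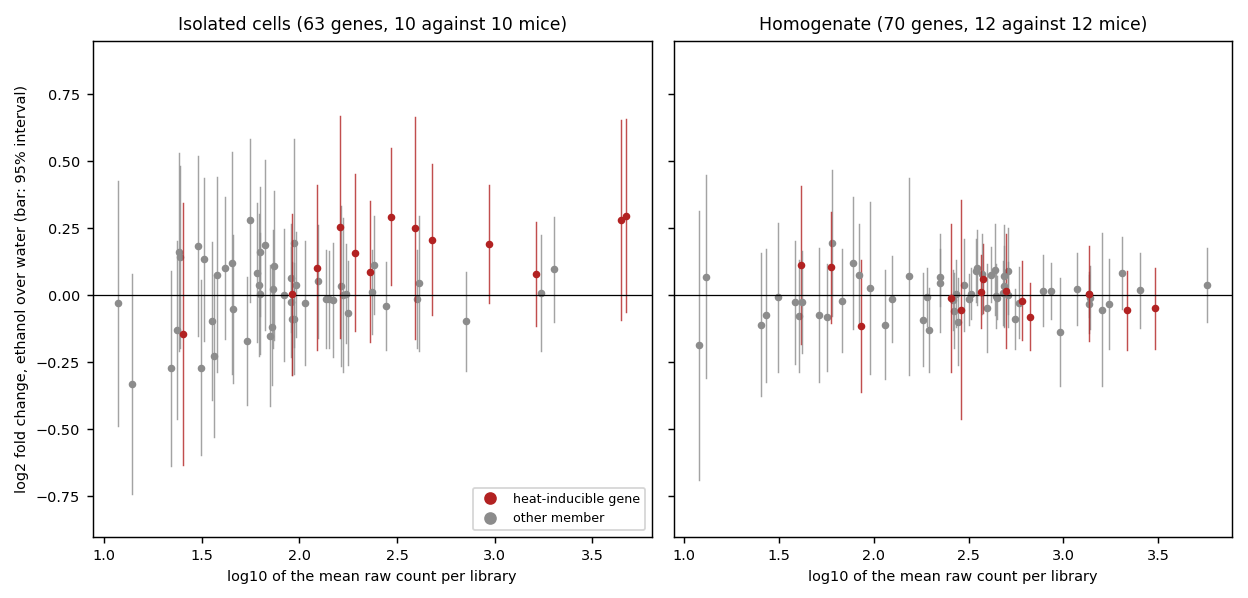
Log2 fold change of ethanol over water for each tested member against its mean raw count per library (log10), in isolated cells and homogenate, with 95% intervals; red marks the 13 heat-inducible genes. Every interval stays within a 2-fold change, and no member passed the threshold.

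In all, 71 members were tested in at least 1 comparison and 62 in all 5. The other 11 had too few counts: Hspb3 (208 counts over the 44 libraries), Dnajb3 (166), Hspb2 (131), Dnajb13 (101), Hspb7 (78), Dnajc22 (16), Dnajb7 (12), Dnajc5b (5) and Hspb9 (1), and none for Dnajb8 and Dnajc5g. Among these are the muscle small heat shock proteins Hspb2, Hspb3 and Hspb7 and the testis gene Hspb9. At these depths a count of 0 shows only that the gene was not detectable.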

How the data were processed

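PolyA RNA was sequenced as paired-end reads after directional library preparation, per the labels' protocols. The authors deposited raw read counts per gene, 1 file per library. Per the submitters' processing notes, the tools include cutadapt 1.8, Bowtie2 2.2.5, Picard 1.141 and HTSeq 0.5.3p9, with build mm10. The strand setting, annotation, treatment of duplicates and of reads that span introns are not given in the sources at hand. Single-exon genes such as Hspa1a may keep more of their reads than others if such reads were lost. Whether such a loss was alike in both fractions was not tested. No file tallies a multiply aligned read. Counts were tested with edgeR 4.0.16 (quasi-likelihood, TMM scaling, filterByExpr, Benjamini-Hochberg over all genes tested, threshold 0.05); DESeq2 1.42.0 was an alternative. One sample in the labels, the isolated cells of water mouse 72, is not analysed here. CPM uses TMM factors over all 44 libraries. Genes were matched to GENCODE M21, all 82 of them, for coordinates and exon length. The fits were also run on simulated counts in which a small part of the genes changed by small known amounts. The fractions differed in most genes, so that run cannot speak for the fraction fits. Named genes are the heat-inducible list, up to 6 members of the largest change and lowest p in each direction per comparison, the 4 most abundant per role, and the heat shock factors; others are named to describe a group and were chosen after their values were seen. Members, lists and rules were chosen with earlier results of these data known. Mouse numbers in the labels pair the fractions of 1 animal. Deviations of the 20 pairs correlated weakly, with a median r of 0.0740 (−0.0318 to 0.149), against −0.000244 for other numbers. Values this low cannot settle the pairing of a single mouse. The main fits did not use the pairing, and the mouse as a block was an alternative. Correlations used 100000 permutations.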

Additional observations from a re-analysis of the deposited data

Results flagged for a closer look

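In groups of 10 isolated libraries, 7 of 108 gene and group combinations (54 named genes) had 1 library far from the other 9; chance gives about 1 in 20. In isolated cells of ethanol mice, Dnajb6 was highest in mouse 77, at 68.6 CPM beside a group median of 53.6 CPM. There Hspbap1 was lowest in mouse 76, at 1.81 CPM from 2 reads, beside a median of 4.09 CPM. In isolated cells of water mice, Hsp90aa1 was lowest in mouse 73, at 367 CPM beside a median of 534 CPM. Hspd1 was highest in mouse 70, at 133 CPM from 76 reads, beside a median of 63.5 CPM. Dnajc30 was lowest in the same library, at 6.98 CPM from 4 reads, beside 15.0 CPM. Dnaja4 was lowest in mouse 82, at 13.6 CPM from 11 reads, beside 36.9 CPM. Dnajb14 was lowest in mouse 81, at 5.54 CPM from 4 reads, beside 23.5 CPM.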

How the results depend on the processing

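Between the fractions, thinning all libraries to the smallest total gave 21 members higher and 17 lower in ethanol mice and 16 and 9 in water mice, with fewer members tested (61 and 55). Among all genes, thinning gave 3498 higher and 3579 lower of 10943 in ethanol mice, and 2028 and 1964 of 8984 in water mice. There Dnajc14 stood at 0.11 and Hspa13 at −0.17 in water mice, both against their called direction and neither past the threshold. Among the named genes, thinning also ended the calls of Dnajc30 (−0.72), Bag1, Dnaja2, Dnaja3, Dnaja4, Dnajb14, Dnajc11, Dnajc18 and Hspb8 in water mice. In ethanol mice it ended those of Hspe1 (0.58), Hsf1 (0.0084), Hsf2, Hspb8, Bag6, Dnaja3, Dnajb14, Dnajc1, Dnajc11 and Dnajc14. Other members lost their calls or were no longer tested. Without the 5 libraries under 1000000 counts, 30 members of 71 tested were higher and 24 lower in water mice, beside 5066 and 5622 of 14221 genes. With the mouse as a replicate block, 33 members were higher and 25 lower in ethanol mice and 25 and 24 in water mice. Among all genes the block gave 5211 and 5510 of 13340 in ethanol mice, and 4737 and 5102 of 13088 in water mice. The block ended the calls of Hsf2 in ethanol mice and of Dnajc14 and Hspa13 in water mice. It changed no other call of a gene named. Ethanol calls stayed at 0 members in isolated cells, in homogenate and for the difference under every alternative run. These runs included 20 and 24 fits that each left out 1 library (lowest and highest count 0) and the replicate block for the difference. With 4 cell type marker covariates in isolated cells, 6 members had an unadjusted p under 0.05, and the members' lowest adjusted p was 0.0889 (edgeR). Among all 11122 genes that fit called 61 higher and 171 lower, and 1485 had such a p. DESeq2 called 18 genes higher and 2 lower in isolated cells, and fits without 1 library called at most 14. The fit without a filter called 1 gene there, and DESeq2 called 1 gene higher and 1 lower for the difference. Calls close to the threshold moved with the scaling, and only those of named genes are given here. Median-ratio scaling, the fit without a filter and DESeq2 each ended the calls of Hsf1 and Hspb8 in ethanol mice. The fit without a filter also ended that of Bag6 there. Upper-quartile scaling ended those of Hsf2 and Dnajc14 in ethanol mice and of Dnaja3 and Dnajc14 in water mice. It added calls of Hspa13 and Dnajc9 in ethanol mice and of Hspa9 (0.27), Hspd1 (0.35), Hsf1 (0.26), Bag6 (0.27), Hspb6 (0.57) and Dnajc1 (0.29) in water mice; Hsf1 and Dnajc1 were also called there without the libraries under 1000000 counts. Dnajb6 was called lower in ethanol mice under median-ratio scaling (−0.13) and with no filter (−0.16), and Hspa13 lost its call in water mice under both. Depth limits isolated libraries most: the filter for the ethanol comparison asked for 7.33 CPM in 10 libraries, and 63 of 82 members passed.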
